A study of Rattus norvegicus with 4 samples.

Results

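The voltage-gated sodium (Nav), calcium (Cav) and hyperpolarization-activated cyclic nucleotide-gated (HCN) channels of the rat hippocampus were followed on a whole-genome oligo array. Members were all noncontrol probes whose accession led to a symbol made of Scn, Cacna, Cacnb, Cacng or Hcn and a digit. This gave 48 probes of 38 genes, out of 41012 noncontrol probes, of which 10768 could be named to 8899 genes. Of the 44 genes in the annotation that fit the rule, Cacna1d, Cacna1h, Cacna1s, Cacna2d4, Cacnb4 and Scn7a had no named probe. The epithelial sodium channel (ENaC) genes Scnn1a, Scnn1b and Scnn1g, which share the Scn letters but are not voltage-gated, were kept apart as a comparison with 4 probes. All RNA came from male Wistar rats that were 10 weeks old when obtained. A group of 10 rats stayed sedentary, and the others ran voluntarily on a wheel for 4 weeks. The wheel had no load (WR, 8 rats) or a resistance that was raised to 30% of body weight (RWR, 8 rats). Hippocampi were taken after the 4 weeks. RNA was pooled within each group, from a number of rats that is not given in the sources used here, so the data hold 1 pool of each group and each comparison has 1 biological replicate. Chips 1 and 2 each set the WR pool against the sedentary pool, and chips 3 and 4 did the same with the RWR pool. The running pool carried Cy5 on chips 1 and 3 and Cy3 on chips 2 and 4. No test between the groups was possible, and every error given here covers chips and dyes and not rats.

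Nav channels open on depolarization and carry the upstroke of the action potential, Cav channels let in the calcium that triggers transmitter release and signals to the nucleus, and HCN channels open on hyperpolarization and set resting potential and rhythm. A Nav channel is a pore-forming alpha subunit with beta subunits that act on its gating and on cell adhesion. A Cav channel of the Cav1 or Cav2 families joins a pore-forming alpha1 subunit with an intracellular beta subunit and an extracellular alpha2delta subunit, whereas most gamma subunits of the brain are known as partners of AMPA receptors. In a whole hippocampus, fewer cells of a type and less RNA per cell cannot be told apart.

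The channel genes were detected about as often as the array's genes at large. Each probe was read 8 times, in 2 dyes on 4 chips, and the processed signal is its brightness in fluorescence units after background subtraction and dye normalization. A reading counted as well above background when the scanner software marked the majority of the probe's spots so, and the brightest probe stood for its gene. On this basis 26 of 38 channel genes (68.4%) were well above background in all 8 readings, against 66.6% of all named genes, 9 in some of them and 3 in none. These 3 were Scn4a of skeletal muscle, Cacna1f of the retina, and Cacna2d2, an alpha2delta subunit, and 11.6% of all named genes were likewise in none. The signals of Scn4a lay between 2.61 and 7.39 in the 8 readings. Signals of different probes cannot be set against each other as RNA amounts, so the plot of the readings is to be read along each row.

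**Figure D1:**
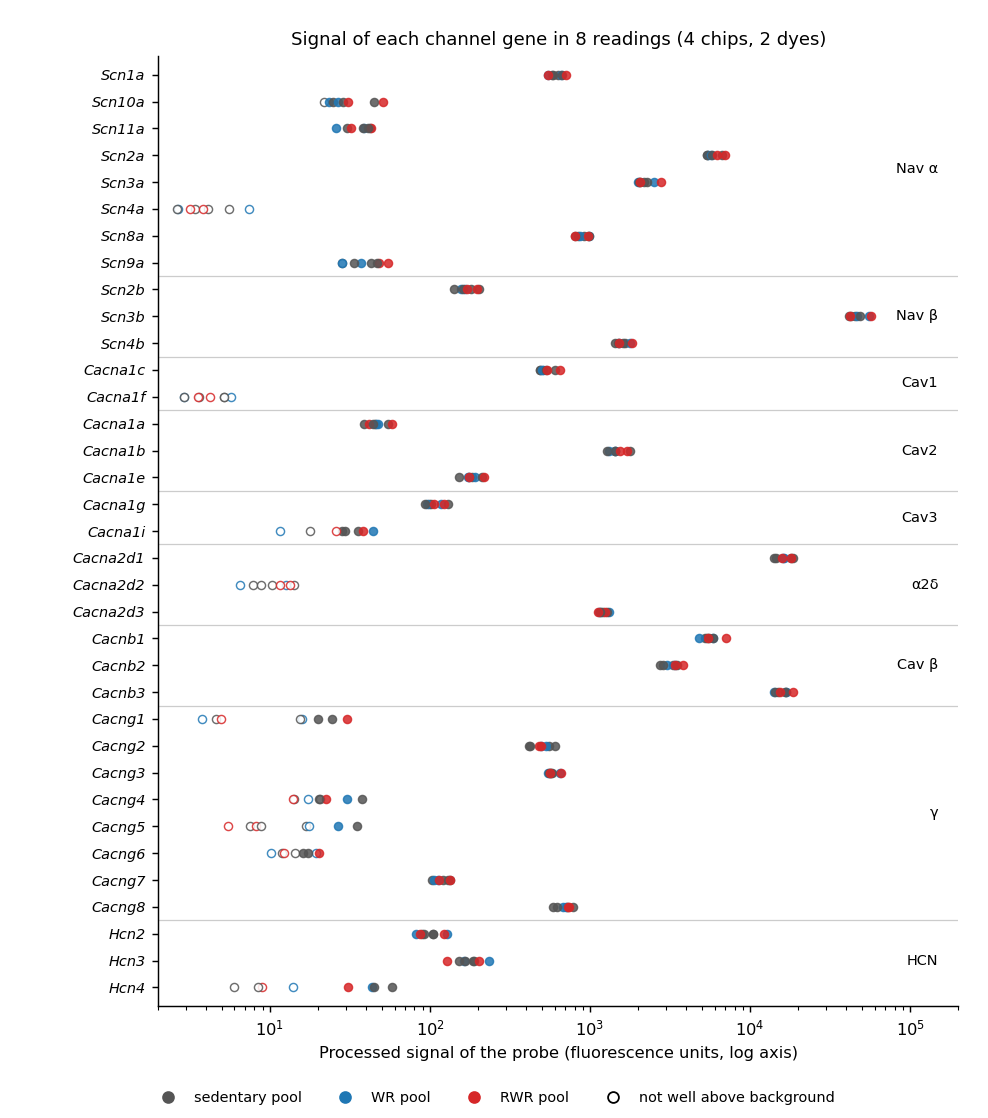
Processed signal (fluorescence units, log axis) of the brightest probe of each of 35 channel genes in 8 readings, by pool (colour), with filled points well above background and open points not. For the genes measured in all readings the points of a row lie close together, and the points of Scn4a, Cacna1f and Cacna2d2 are all open.

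By family, 5 of 9 Nav alpha genes, 4 of 4 Nav beta genes, 1 of 2 Cav1, 3 of 3 Cav2, 1 of 2 Cav3, 2 of 3 alpha2delta, 3 of 3 Cav beta, 4 of 8 gamma and 3 of 4 HCN genes were well above background in all 8 readings. Among the Nav alpha genes in some readings were Scn9a and Scn10a of sensory neurons (7 each), while Scn11a, also of sensory neurons, was in all 8 at signals of 25.9 to 42.9. The other genes in some readings were Cacna1i (5), a T-type calcium channel, the gamma subunits Cacng1 (3), Cacng4 (4), Cacng5 (2) and Cacng6 (3), and Hcn4 (4), known as the pacemaker channel of the sinoatrial node. The defining markers of excitatory neurons with a named probe (Slc17a7, Camk2a and Wfs1) and all 5 interneuron markers (Gad1, Gad2, Pvalb, Sst and Npy) were well above background in all 8 readings.

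The promoter windows of channel genes detected throughout held more CG dinucleotides in the median than those of the others, with wide overlap. RefSeq (GRCr8) windows of 300 bases, 250 before and 50 after the start, were held for 25 of the 38 genes (28 windows, as Cacna2d1 and Cacnb2 have more than 1 start). The CG dinucleotide, counted on either strand alike, occurred a median of 24 times in the 21 windows of genes that were well above background in all 8 readings and 9 times in the 7 windows of the others. Overlapping windows of Cacna2d1, with 36, 40 and 41 CG, each counted in the first of these medians and lie above it. Across all named genes the medians were 20 and 3, in the same order as for the channel genes. The letters GGGCGG on either strand were in 14 of 28 windows (50%), close to the 47.2% of windows of all named genes and above the 33.1% of all promoter windows. TATAAA was in 1 (13.4% of windows of named genes, 14.2% of all) and TGACGTCA in 0 (2.49% and 1.83%). A match of letters is not a binding site, and a missing one says only that these letters are not in these windows. The windows of Cacnb2 (chr17:82472965-82473264, plus strand, 37 CG) and Cacnb3 (chr7:131666301-131666600, plus strand, 44 CG), the intracellular beta subunits described further on, are shown beside that of Scn4a (chr10:91796275-91796574, minus strand, 9 CG), which was in no reading well above background. Each is written 5′ to 3′ with CG in capitals.
Cacnb2: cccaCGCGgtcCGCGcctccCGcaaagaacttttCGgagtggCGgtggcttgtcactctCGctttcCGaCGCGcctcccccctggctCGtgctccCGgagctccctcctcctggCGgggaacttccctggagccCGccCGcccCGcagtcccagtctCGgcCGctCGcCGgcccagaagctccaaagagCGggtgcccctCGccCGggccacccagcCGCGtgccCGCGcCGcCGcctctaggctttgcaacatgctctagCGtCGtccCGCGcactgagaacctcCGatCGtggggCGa
Cacnb3: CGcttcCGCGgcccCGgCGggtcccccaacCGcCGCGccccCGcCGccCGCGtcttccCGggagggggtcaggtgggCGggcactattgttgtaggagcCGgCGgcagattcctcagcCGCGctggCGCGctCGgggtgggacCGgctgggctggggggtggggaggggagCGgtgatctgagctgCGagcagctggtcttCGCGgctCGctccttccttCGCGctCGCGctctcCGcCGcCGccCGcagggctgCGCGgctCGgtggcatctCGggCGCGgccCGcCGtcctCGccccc
Scn4a: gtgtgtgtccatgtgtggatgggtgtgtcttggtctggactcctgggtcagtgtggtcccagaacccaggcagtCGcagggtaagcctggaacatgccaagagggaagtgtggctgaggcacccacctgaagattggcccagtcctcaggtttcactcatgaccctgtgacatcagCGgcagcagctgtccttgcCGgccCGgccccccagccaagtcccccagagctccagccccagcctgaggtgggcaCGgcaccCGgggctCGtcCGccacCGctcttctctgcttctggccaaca
The second window of Cacnb2 held 6 CG. The counts overlapped widely, from 2 to 60 CG in the windows of genes in all 8 readings and from 2 to 44 in those of the others. Cacna2d2, which was in no reading well above background, had 44 CG. Among the genes in all 8, Scn2b had 2, Cacna1c and Scn2a 4, Scn11a 6, and Cacng2 and Scn3a 7.

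Ratios were turned to running over sedentary on each chip and put on the log2 scale. The fold cutoffs of the study, over 1.5 or under 0.75, and its threshold of 0.01 for the p-value of the scanner software were applied here to each chip of a comparison. No channel probe passed them on both chips. The count was 0 of 48 in WR, where 0.0317% of all probes passed, and 0 of 48 in RWR, where 0.0585% passed. It stayed 0 of 48 in both comparisons when the p-value was not used, with 0.549% (WR) and 1.48% (RWR) of all probes past the cutoffs. Among so few passing probes, a count of 0 of 48 is no result about the channels. Means past 0.75-fold occurred only at probes well above background in some readings, such as Cacng1 in RWR (0.628-fold), and the 26 genes measured in all readings had means of small size.

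In both comparisons more of the measured channel genes lay above 0 than below. The mean log2 ratio of both chips was above 0 in 20 of the 26 genes measured in all readings in WR (76.9%, against 50.2% of all 5927 such named genes) and in 19 of 26 in RWR (73.1%, against 49%). Their log2 ratios had a median of 0.06 (WR) and 0.07 (RWR), beside 0.00019 and -0.0014 over all such genes. The medians on chips 1, 2, 3 and 4 were 0.07, 0.03, 0.07 and 0.06, so the offset was present in each dye orientation. Both comparisons share the sedentary pool, so they do not count as separate evidence. The WR median fell to 0.04 without background correction before loess, and over all 38 genes it was 0.04, 0.0073 with all probes of each gene and -0.01 on chip 2 alone. These counts describe 1 pool of each group and were not tested.

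**Figure D2:**
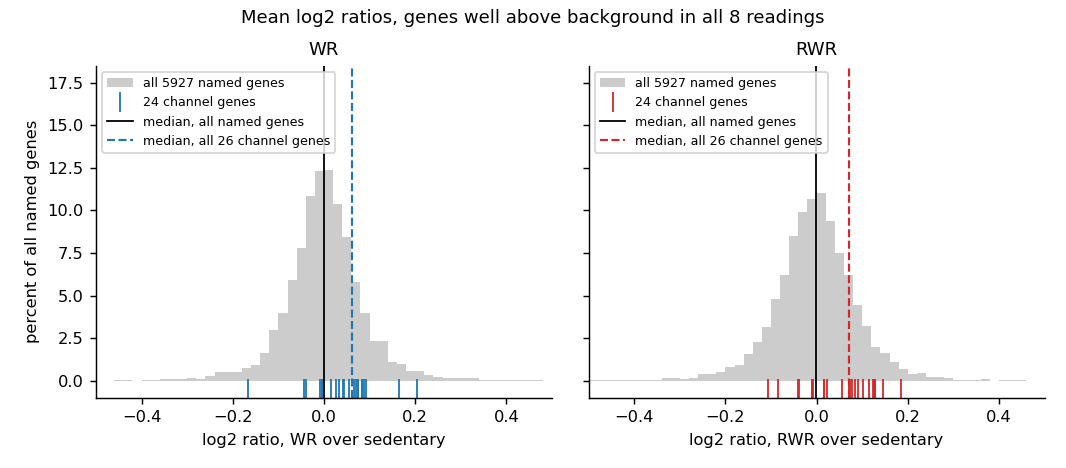
Distribution of the mean log2 ratio of running over sedentary over 5927 named genes well above background in all 8 readings (grey, percent of genes per bin, those beyond the axis not drawn), with 24 channel genes as ticks, in WR (left) and RWR (right). The median of all 26 channel genes (dashed) lies at 0.06 in WR and 0.07 in RWR, to the right of the median of all genes (solid).

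In most probes the dye made a larger difference than the pool. The turned ratios of the chips of a pair, in which a difference between pools has the same sign and a dye effect the opposite sign, had a Pearson correlation of -0.76 (chips 1 and 2) and -0.69 (chips 3 and 4) over 41003 probes, and chips of the same orientation one of 0.71 (1 and 3) and 0.70 (2 and 4). Over all 48 channel probes the values for the pairs were -0.92 and -0.67. These sets of probes include dim ones with large opposite ratios, such as Hcn4 at -2.06 and 2.87 in WR. The dye part, which is the difference between the chips of a pair divided by 2, was larger than their mean in 17 of 26 channel genes in WR and 15 of 26 in RWR, as in 4148 and 3980 of the 5927 named genes. The mean of a pair cancels this part. Its technical standard error (SE) came from probes of like signal on all 4 chips and ran from 0.03 to 0.21 on the log2 scale among the 26 genes.

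By that measure 8 of 26 channel genes were above 0 on both WR chips (30.8%, against 14.7% of all named genes measured in all readings), and 1 was below 0 on both (3.85%, against 15.3%). In RWR 10 of 26 were above 0 on both chips (38.5%, against 15.8%) and 1 below (3.85%, against 17%). Genes above 0 on both chips and also more than 2 SE from 0 numbered 5 in WR (19.2%, against 5.3%) and 10 in RWR (38.5%, against 7.22%). Those in WR included Scn3b, Cacnb2, Scn4b and Scn8a, and those in RWR included Cacnb2, Scn3a, Cacnb3, Scn4b, Scn3b, Cacna1e, Cacng3, Scn2a and Cacna1c. Some of them depended on the background setting. Without background correction before loess, Scn8a (0.02) and Scn4b (0.03) in WR lay within 2 of these SE of 0. So did Cacna1e (0.04) and Cacna1c (0.06) in RWR. By its brightest probe, no channel gene was below 0 on both chips by more than 2 SE, against 6.83% (WR) and 7.74% (RWR) of all. A dimmer Cacna1e probe, measured in all 8 readings, was so in RWR (-0.13 and -0.47, mean -0.30, SE 0.13).

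**Figure D3:**
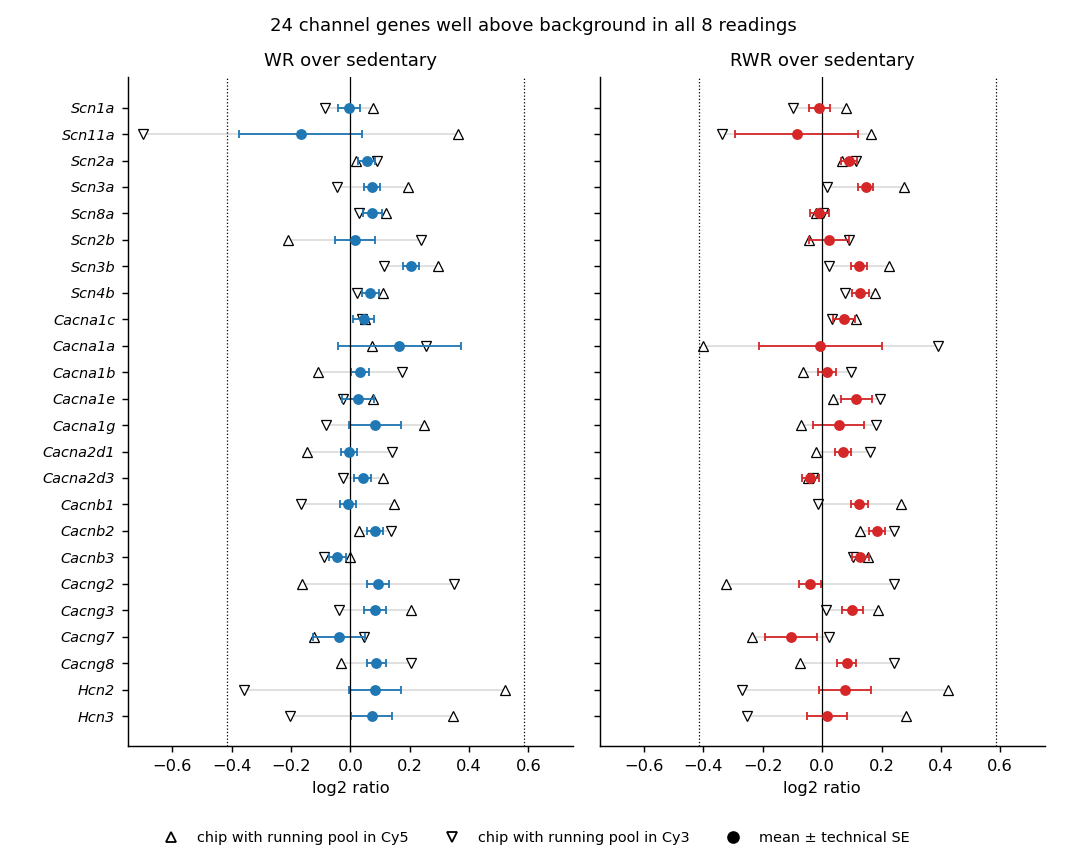
Log2 ratio of running over sedentary for 24 channel genes well above background in all 8 readings, on the chip with the running pool in Cy5 (triangle up), on the chip with it in Cy3 (triangle down) and as their mean with its technical SE (circle and bar), for WR (left) and RWR (right). Dotted lines mark 1.5-fold and 0.75-fold on the log2 scale, and no mean crosses them.

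Cell markers did not move as a single block beside the channels. Among genes measured in all 8 readings, the median log2 ratio of 4 oligodendrocyte markers was -0.07 in WR and -0.11 in RWR, with Mbp at -0.24 in RWR. The 5 interneuron markers had medians of 0.05 and 0.12, within which WR values ran from -0.01 (Sst) to 0.13 (Npy) and RWR values from -0.03 (Pvalb) to 0.24 (Npy), and the highest, Npy, had opposite signs on the chips of each pair. The medians of the 3 excitatory neuron markers were 0.0064 and -0.03. Medians were 0.0078 and 0.01 for 4 astrocyte, 0.04 and -0.0082 for 4 microglia, -0.04 and -0.09 for 2 endothelial, -0.02 and 0.0033 for 2 blood, -0.0097 and 0.12 for 2 skeletal muscle and -0.06 and 0.04 for 3 pituitary markers in WR and RWR. Of the choroid plexus markers, Ttr passed these cutoffs in WR at a log2 ratio of -0.86 and lay at 0.12 in RWR, and the dim pituitary marker Prl passed them in RWR at -1.20 and lay at -0.98 in WR, lower on both chips there too. The part of these cell types in the channel values was not tested.

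Among the Nav alpha subunits, the pair means of the genes known as the principal sodium channels of central neurons stayed within 0.15 of 0 on the log2 scale. Scn2a, a channel of axon initial segments and unmyelinated axons, read 5401 (chip 1), 5360 (chip 2), 6687 (chip 3) and 5743 (chip 4) in the sedentary pool and 5472, 5703, 7004 and 6214 in the running pools of the same chips. The running pool was brighter on each chip, with log2 ratios of 0.02 and 0.09 in WR and 0.07 and 0.11 in RWR, a mean of 0.05 and 0.09 (SE 0.03). A second Scn2a probe gave means of 0.10 and 0.14. Scn3a, known for its high level in the embryonic and newborn brain, read 2184, 2056, 2281 and 2017 in the sedentary pool and 2496, 1993, 2762 and 2040 in the running pools. Only WR on chip 2 was below its sedentary partner, and the log2 ratios were 0.19 and -0.04 in WR and 0.28 and 0.02 in RWR, a mean of 0.07 and 0.15 (SE 0.03). Scn8a, a channel of initial segments and nodes of Ranvier, had 0.12 and 0.03 in WR and -0.02 and 0.0030 in RWR, and Scn1a, known from inhibitory interneurons, had means of -0.0052 and -0.0097 (SE 0.04). Scn11a followed the dye, at 0.36 and -0.70 in WR and 0.17 and -0.34 in RWR. The dim genes Scn9a (0.07 and 0.20, SE 0.21) and Scn10a (0.10 and 0.14, SE 0.27) gave means that did not differ from 0 beyond 2 SE.

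The Nav beta subunits were all measured and all had mean log2 ratios above 0 in both comparisons. Scn3b, which binds the alpha subunit without a disulfide bond, read 45029, 42901, 48542 and 41629 in the sedentary pool on chips 1 to 4 and 55216, 46423, 56744 and 42277 in the running pools. The running pool was brighter on every chip, by log2 ratios of 0.29 and 0.11 in WR and 0.23 and 0.02 in RWR. Its WR mean of 0.20 (SE 0.03, 1.15-fold) was the highest of the 26 genes in WR, and its RWR mean was 0.12. Scn4b, a disulfide-linked subunit known for its part in resurgent sodium current, was above 0 on every chip, at 0.11 and 0.02 in WR and 0.18 and 0.08 in RWR. Scn2b, also disulfide-linked, had opposite signs within each pair and means of 0.01 and 0.02 (SE 0.07).

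Among the pore-forming Cav subunits, Cacna1c, the L-type channel of neurons and heart, was above 0 on every chip, with log2 ratios of 0.05 and 0.04 in WR and 0.11 and 0.03 in RWR (means 0.04 and 0.07, SE 0.04). A second, dim Cacna1c probe, well above background in 3 of 8 readings, gave 0.45 in WR and -0.76 in RWR, and the probes differ beyond 2 SE in RWR. Cacna1b, the N-type channel of presynaptic terminals, had means of 0.03 and 0.02 (SE 0.03) with opposite signs in each pair. Cacna1a, the P/Q-type channel, was dim at signals of 38.5 to 58.0 and had means of 0.16 and -0.0069 with an SE of 0.21. The R-type channel Cacna1e was at 0.04 and 0.20 in RWR, a mean of 0.12 (SE 0.05), but its other 2 probes, measured in all 8 readings too, gave -0.10 and -0.30, so no direction can be given for this gene. Cacna1g, a T-type channel of burst firing, had means of 0.08 and 0.06 (SE 0.09).

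The Cav beta subunits, which bring the alpha1 subunit to the membrane and set its gating, differed between the RWR and WR pools by their brightest probes. Each running mode is 1 pool, so a difference between the modes was not tested. Cacnb3 read 16651, 14898, 16621 and 14289 in the sedentary pool on chips 1 to 4, 16637 and 14019 in the WR pool and 18499 and 15341 in the RWR pool. RWR was brighter than its sedentary partner in both dyes, with log2 ratios of 0.15 and 0.10 (mean 0.13, SE 0.03), while WR had -0.0013 and -0.09 (mean -0.04). Cacnb2 read 3310, 2745, 3480 and 2871 in the sedentary pool, 3375 and 3021 in the WR pool and 3806 and 3396 in the RWR pool. Running was brighter on every chip by this probe, at 0.03 and 0.14 in WR and 0.13 and 0.24 in RWR. Its RWR mean of 0.19 (SE 0.03, 1.14-fold) was the highest of the 26 genes in RWR. A second, dimmer Cacnb2 probe, measured in all 8 readings too, had -0.29 and -0.01 in WR (mean -0.15). In RWR it had -0.03 and 0.09 (mean 0.03), with an SE of 0.13 in both. Cacnb1 read 5256, 5385, 5848 and 5537 in the sedentary pool, 5825 and 4802 in the WR pool and 7034 and 5478 in the RWR pool. Its signs followed the dye against sedentary (0.15 and -0.17 in WR, 0.27 and -0.02 in RWR).

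Setting RWR against WR within a dye orientation, as the difference of the ratios on chips 3 and 1 and on chips 4 and 2, removes the dye part that a probe has on both chips and rests on the sedentary pool only through those chips. The log2 differences were 0.16 and 0.19 for Cacnb3, 0.12 and 0.15 for Cacnb1 and 0.10 and 0.10 for Cacnb2. All 3 measured Cav beta genes were thus higher in the RWR pool than in the WR pool in both orientations. The means were 0.17, 0.13 and 0.10 on the log2 scale (1.07-fold to 1.13-fold, SE 0.04 each). The second Cacnb2 probe gave 0.18 with an SE of 0.18. Over all 26 channel genes, 4 were higher in RWR in both orientations and beyond 2 SE (15.4%, against 6.88% of all named genes measured in all readings) and 3 lower (11.5%, against 6.8%), and the median difference was 0.0029. The lower genes included Cacng2 (-0.13, SE 0.05) and Scn3b (-0.08, SE 0.04).

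**Figure D4:**
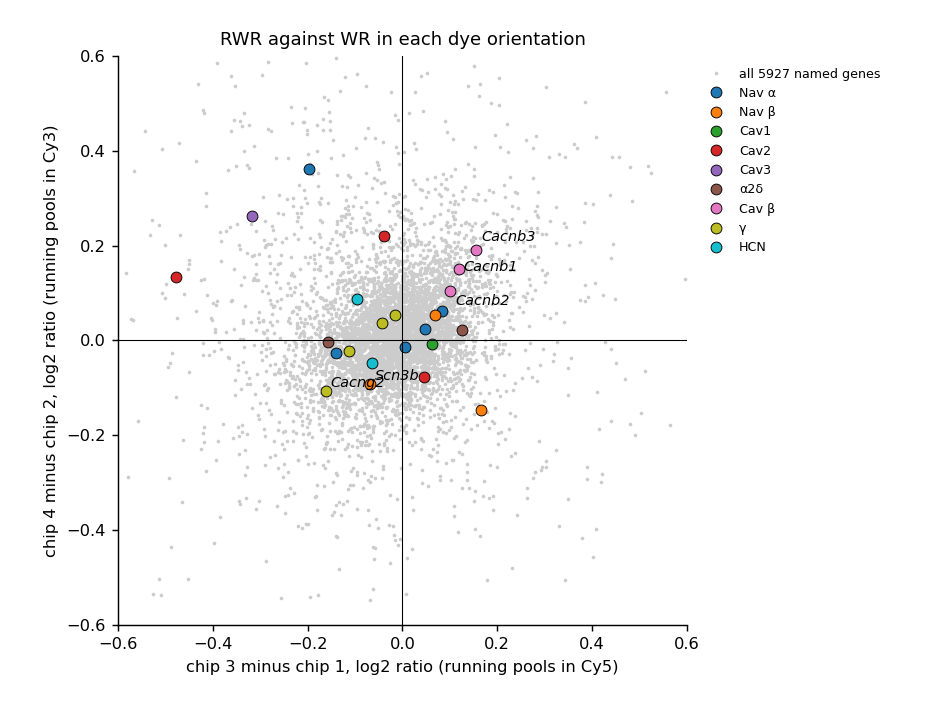
Difference of the log2 ratios of RWR and WR with the running pools in Cy5 (horizontal axis, chip 3 minus chip 1) and in Cy3 (vertical axis, chip 4 minus chip 2) for 24 channel genes by family (colours) and 5927 named genes (grey, those beyond the axes not drawn). Named points are the 5 of these genes with the same sign in both orientations and a mean beyond 2 SE, and the 3 Cav beta genes lie together on the upper right.

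The alpha2delta subunits, which carry the alpha1 subunit to the surface, differed little. Cacna2d1 had log2 ratios of -0.15 and 0.14 in WR and -0.02 and 0.16 in RWR, with means of -0.0046 and 0.07 (SE 0.03). Of the 26 genes measured in all readings, Cacna2d3 alone was below 0 on both RWR chips by its brightest probe (-0.05 and -0.03, mean -0.04, SE 0.03). It lay at 0.04 in WR. Among the gamma subunits, Cacng2, Cacng3 and Cacng8, which carry AMPA receptors to the synapse, had WR means of 0.09, 0.08 and 0.09. Their RWR means were -0.04, 0.10 and 0.08 (SE 0.03 to 0.04), and Cacng3 alone was above 0 on both RWR chips (0.19 and 0.01). Cacng7 lay at -0.04 and -0.11 with an SE of 0.09. Cacng2 had opposite signs in each pair (-0.16 and 0.35 in WR, -0.33 and 0.24 in RWR), so its direction against sedentary rests on the cancelling of the dye part.

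Of the HCN channels, Hcn2 followed the dye, at 0.52 and -0.36 in WR and 0.43 and -0.27 in RWR, with means of 0.08 in both (SE 0.09). Hcn3 had means of 0.07 and 0.02 (SE 0.07), and its second probe -0.12 and 0.00998.

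Most of the 13 channel probes that were well above background in only some readings followed the dye rather than the pool. Scn10a did not, at 0.11 and 0.09 in WR and 0.09 and 0.19 in RWR. The brighter Scn9a probe and the dim Scn4b probe had the same sign on both RWR chips. Cacng4 turned one way with the dye in WR (-0.31 and 0.30) and the other way in RWR (0.12 and -0.54). Of the 13 probes, 11 were well above background in more Cy5 than Cy3 readings, 1 in more Cy3 readings and 1 in as many of each. The probe with more Cy3 readings was that of Hcn4, with all 4 Cy3 readings well above background (57.8, 43.4, 45.0 and 30.6 on chips 1 to 4) and none of the 4 Cy5 readings (13.9, 5.94, 8.93 and 8.46). Its log2 ratios of running over sedentary were -2.06 and 2.87 in WR and -2.33 and 1.85 in RWR. The direction turned with the dye, and since no Cy5 reading was well above background these ratios are not measured folds. A second Scn9a probe showed the opposite dye, at 2.52 and -3.50 in WR and 0.93 and -1.86 in RWR, and Cacng1 of skeletal muscle was at 1.79 and -2.39 in WR and 0.96 and -2.30 in RWR. For no channel gene did a probe below background in a single pool give a lower bound of the fold above 1.

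**Figure D5:**
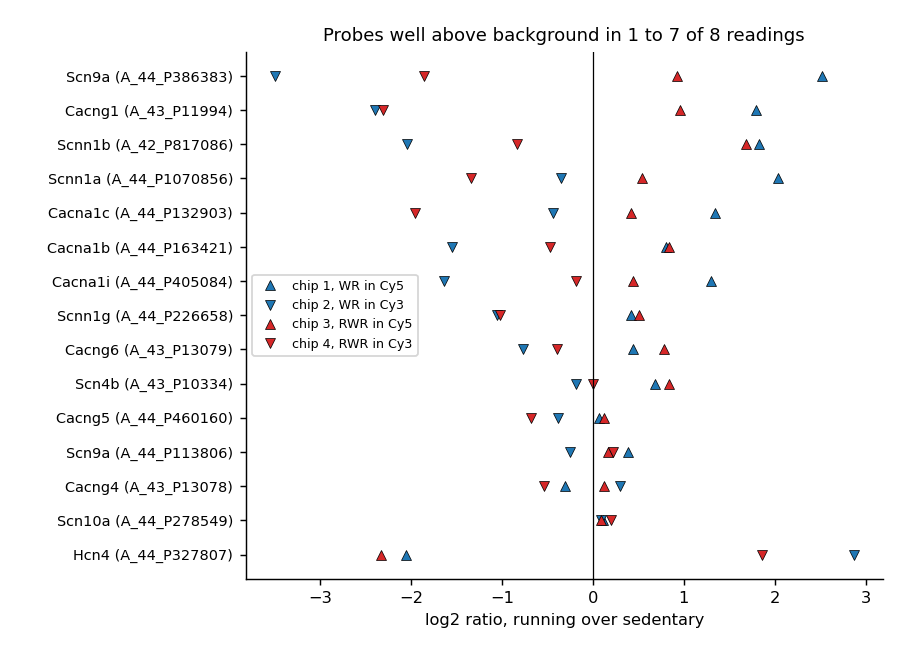
Log2 ratio of running over sedentary on each of the 4 chips (triangle up, running pool in Cy5, triangle down, in Cy3; blue WR, red RWR) for probes of channel and ENaC genes that were well above background in 1 to 7 of 8 readings. Most probes lie to the right when the running pool carried Cy5 and to the left when it carried Cy3, and the Hcn4 probe lies the other way round.

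The ENaC genes, known from kidney, lung and colon, served as the comparison. Scnn1a had a probe well above background in all 8 readings, at signals of 78.9 to 106.8, with mean log2 ratios of 0.10 in WR and 0.01 in RWR (SE 0.09). Scnn1b (3 readings) and Scnn1g (2 readings) were well above background in Cy5 only. None of the 4 ENaC probes passed these cutoffs. With 1 gene measured throughout, they give no level against which the channel genes could be set.

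Of 31 listed partners of these channels, 20 had a named probe and 18 were well above background in all 8 readings. The median of these 18 was 0.03 on the log2 scale for WR and -0.0038 for RWR, and 0 of 20 passed these cutoffs in either comparison. In WR 6 of the 18 were above 0 on both chips and 2 below, and in RWR 2 above and 4 below, where the shares over all named genes measured in all readings were 14.7% and 15.3% (WR) and 15.8% and 17% (RWR). Among these 18, the largest means in WR were Ppp3ca, a catalytic subunit of calcineurin (0.13, SE 0.03), the syntaxin Stx1a of the release machinery (0.10, SE 0.04), the calmodulin gene Calm2 (0.10, SE 0.03) and Fgf14, an intracellular partner of Nav channels (-0.09, SE 0.09). In RWR they were Akap5, an anchoring protein of kinases and calcineurin (0.14, SE 0.03), Rem2, a GTPase that binds Cav beta subunits (0.14, SE 0.09), Fgf14 (-0.13) and Ppp3ca (0.09). Signs were opposite on the chips of the pair for Calm2 in WR (0.35 and -0.16), and for Fgf14 (0.06 and -0.32) and Ppp3ca (0.18 and -0.0030) in RWR. The other means named here had the same sign on both chips. The difference between these medians and those of the channel genes was not tested.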

How the data were processed

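RNA pools of sedentary, WR and RWR hippocampus were measured on 4 2-colour chips. Per the file headers and the labels, the authors extracted the signals with Agilent Feature Extraction 11.0.1.1. That software subtracted the background and normalized the dyes by LOWESS, which gave the deposited processed signal (an intensity). It also gave the deposited log10 ratio, red (Cy5) divided by green (Cy3), and the deposited p-value from an error model of each chip alone. The authors' series matrix has log10 ratios made from the same processed signals, without turning, and was used as an alternative. Chips held 43379 noncontrol spots. The share of spots well above background ran from 67.5% to 77.6% (Cy3) and from 71.7% to 82.5% (Cy5). No spot was saturated. The software set the log ratio to 0 at 2287 to 3749 spots per chip. Here, spots flagged as outliers (118 to 140 a chip) were dropped. Log2 ratios were given the sign of running against sedentary and averaged over the spots of a probe, and the median of the spots' p-values was taken. Lower bounds used Aquantile-normalized signals.

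Probes were named by matching the accession of the array design (rn4) to the RefSeq table of GRCr8, which was used for names and promoter windows only. The channel genes are named, and of the partners the 4 with the largest mean. The values of a few genes are not reported here or drawn in the plots, and stay in the counts and medians. The standard deviation of a chip was the root mean square of the difference between the dye parts of both pairs, at each of 20 signal levels, with the dye part of a probe taken as equal in both pairs. The SE of a pair mean is this value over the square root of 2, and the SE of RWR over WR is the value itself. The steps were tested on simulated data. Members and lists were chosen with earlier results of these data known. The number of chips limits the precision. Alternatives were the p-value rule, equal cutoffs, a filter on dim probes, spot medians, background correction with loess, centring, matrix values, and each chip left out. Python 3.11.15, numpy 2.4.6, pandas 2.3.3, R 4.3.3 and limma 3.58.1 were used.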

Additional observations from a re-analysis of the deposited data

Results flagged for a closer look

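Cacnb3, a Cav beta subunit, was below 0 on both WR chips (log2 ratios of -0.0013 and -0.09) and above 0 on both RWR chips (0.15 and 0.10), which flagged it for signs that are opposite in the comparisons. Its WR mean of -0.04 (SE 0.03) lies within 2 SE of 0, so a movement in WR is not shown. The difference of RWR and WR was 0.173 on the log2 scale. It was not tested, since each group is 1 pool.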

How the results depend on the processing

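The count of channel probes past the cutoffs stayed at 0 in both comparisons without the p-value filter, with equal cutoffs, with spot medians, with a filter on dim probes, under both background and loess settings, with centring, with the series matrix values, and with the median at each of 20 signal levels subtracted, an alternative chosen after the data had been seen. With the cutoffs on the mean of a pair and p on at least 1 chip, 1 probe (Scn9a, lower) passed in WR and 2 (Scn9a and Cacng1, lower) in RWR, all dim and with opposite signs on the chips of a pair. With a single chip, which leaves the dye in the ratio, 3 to 5 probes passed in WR and 2 to 3 in RWR. The median log2 ratio of all 38 channel genes, 0.04 in WR and 0.06 in RWR, ran from -0.01 to 0.09 on single WR chips and from 0.02 to 0.10 on single RWR chips, and was 0.0073 in WR with the median over all probes of each gene. Without background correction before loess, the median of the 26 genes measured in all readings was 0.04 in WR and 0.06 in RWR. All 9 genes with the same sign on both WR chips and all 11 on both RWR chips kept the sign of their mean under each scaling and background setting. In WR 6 and in RWR 2 of the 26 genes changed the sign of their mean under some setting. The RWR over WR difference stayed above 0 under these settings for Cacnb1 (0.12 to 0.14), Cacnb2 (0.10 to 0.12) and Cacnb3 (0.15 to 0.18). No paired analysis was possible because the replicate numbers only name the chips and each group is 1 pool. Signals near background limit what can be said of the 12 genes not measured in all readings.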
